A study of Arabidopsis thaliana with 6 samples.

Results

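The genes described here encode proteins of the cytosolic ribosome of Arabidopsis thaliana. They are listed by locus code on chromosomes 1 to 3, but the list does not hold all such genes of these chromosomes. The listed genes were chosen with earlier results of these data known. Of 60 listed loci, 29 had a probe set that the probe-to-gene table assigns to that gene alone, and these 29 are the genes counted below. A further 11 loci were covered only by 10 probe sets shared between near-identical genes. The probe-to-gene table names no probe set for the other 20, which are not analysed here. The whole table held 22746 tested probe sets. Roots of Col 0 plants grown for 14 days in sterile hydroponic jars were profiled on Affymetrix ATH1 arrays, 1 array a jar. The gold group was 3 jars in which the medium was replaced by 0.125 mM KAuCl4, a soluble gold(III) salt. The no gold group was 3 jars that the sample labels call untreated and the design text calls treated with water only. The sample labels give 24 h of exposure and the treatment protocol gives 6 h, so the time is not settled. The comparison asks how these transcripts of the root stood after contact with gold, set against roots kept without it.

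The cytosolic ribosome of plants has a small 40S subunit, which reads the messenger RNA, and a large 60S subunit, which joins amino acids. Each subunit is built on ribosomal RNA with many proteins, and in Arabidopsis most of these proteins are encoded by several near-identical genes. Ribosomal protein transcripts are abundant in growing tissue such as root tips, and their amounts are known to move together with growth, under control that includes the TOR kinase pathway. Most of the 29 loci carry only a locus code in the gene tables. The protein families given below (L7, S12 and so on, numbered separately for the large and small subunit) come from general knowledge of these loci.

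Values are on a log2 scale that the authors centred, so that each probe set has a median of 0 over the 6 arrays. A value of -1 is therefore a level of 1 log2 unit under that gene's own middle level. Levels of different genes cannot be compared, and the label of the tissue as root could not be checked from marker levels. Because of the centring, the 2 middle values of each gene mirror each other around 0. The array of no gold replicate 1 stood apart in quality. In 6 pairs of control probe sets for actin, GAPDH and ubiquitin, its 5' minus 3' difference lay between -4.89 and -0.26, against -1.02 to 0.54 over the other 5 arrays. Gold replicate 2 was the next lowest, at -1.02 to -0.20.

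All 29 genes had a lower mean with gold than without, by a small amount. Changes ran from -1.34 to -0.16 with a median of -0.36, whereas all probe sets tested had a median of -0.04. A negative difference was found in 29 of 29 genes, against 55.4% of all probe sets. In 26 of the 29 genes the change lay within 0.3 of the median gene. The lower and upper quartiles of the change were -0.49 and -0.28 in the 29 genes, and -0.35 and 0.20 over all probe sets. Single genes mostly missed the threshold. With limma, adjusted over all probe sets, 2 of the 29 genes were lower (10.9% of all probe sets were called lower) and none was higher (9.32% were called higher, and 20.2% were called in either direction). At an unadjusted limma p under 0.05, 11 of the 29 were lower and none was higher, against 18.3% and 13.6% of all probe sets. The count rested on single jars. Without gold replicate 1, 7 of the 29 were lower, against 11.6% of all probe sets. Without any 1 of the other arrays, 1 of the 29 was lower. The shares of all probe sets called lower were then 7.14% and 5.53% without gold replicates 2 and 3, and 11.9%, 6.88% and 7.58% without no gold replicates 1, 2 and 3. In bulk RNA from roots, fewer cells of a type and less RNA per cell cannot be told apart.

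The shift was uneven over the gold jars. The median of the 29 genes was -0.00426 in gold replicate 1, -0.46 in gold replicate 2 and -0.26 in gold replicate 3, against 0.05, 0.25 and 0.12 in no gold replicates 1, 2 and 3. Averaged over arrays, these medians came to -0.24 ± 0.23 in gold and 0.14 ± 0.10 in no gold jars (SD, n = 3 each). The group ranges of these medians did not overlap, but gold replicate 1 lay close to no gold replicate 1. All 29 genes were below 0 in gold replicates 2 and 3, and 15 were in gold replicate 1. Below 0 in the no gold jars were 13 genes in replicate 1, 0 in replicate 2 and 1 in replicate 3. Of all probe sets, 54.2%, 54.0% and 51.3% were below 0 in gold replicates 1, 2 and 3. In no gold replicates 1, 2 and 3 these shares were 41.0%, 51.2% and 48.1%. The counts of gold replicate 1 and no gold replicate 1 thus lay near the share of all probe sets. Gold replicate 1 held the highest of the 3 gold values in 29 of 29 genes, and gold replicate 2 held the lowest in 26.

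**Figure D1:**
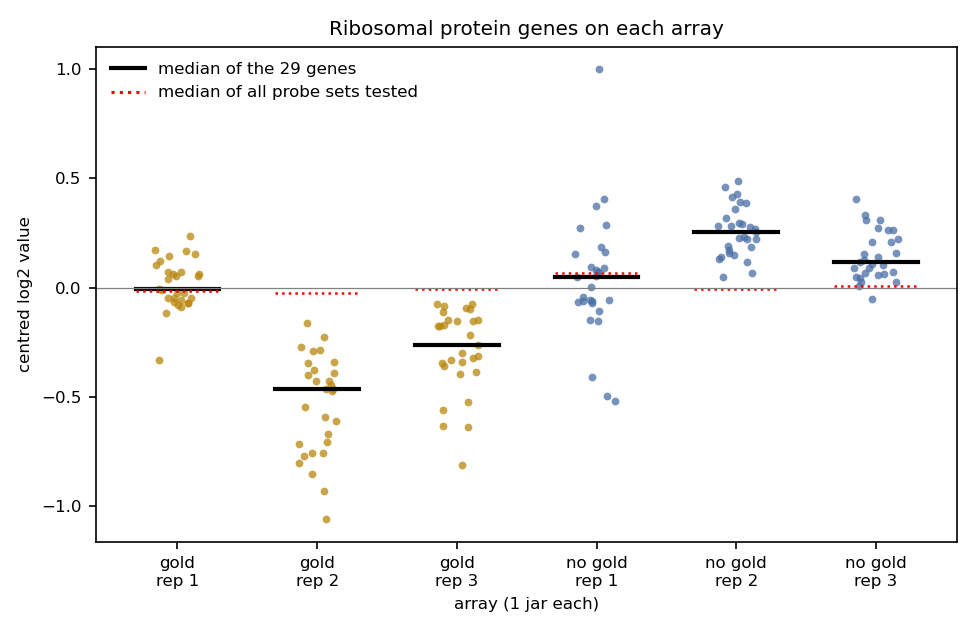
Centred log2 values (vertical axis) of the 29 cytosolic ribosomal protein genes on each of the 6 arrays, 3 gold on the left and 3 no gold on the right; each point is 1 gene, the black line is their median and the dotted red line the median of all probe sets tested. All points lie below 0 in gold replicates 2 and 3 and above 0 in no gold replicate 2, and the points of gold replicate 1 lie around 0.

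Compared jar by jar, the median gene was lower in gold in all 9 pairs of a gold and a no gold jar. These pairs reuse the same arrays, so they are not separate results. The median difference of all probe sets was also negative in every pair except gold replicate 3 against no gold replicate 2 (0.0074). It reached -0.13 for gold replicate 2 against no gold replicate 1. The median difference of the 29 genes was largest for gold replicate 2 against no gold replicate 2, at -0.82 with 29 of 29 genes lower. It was smallest for gold replicate 1 against no gold replicate 1, at -0.10 with 16 of 29 genes lower. The median difference of all probe sets for that last pair was -0.11, so the genes did not stand out in it. The part of array quality in these differences was not tested. Without no gold replicate 1 the median change was -0.47 and all 29 differences stayed negative, and without gold replicate 2 it was -0.26, again with 29 negative. Single genes depended more on 1 jar than the median did. Without gold replicate 2, 15 of the 29 changes were smaller in size by over 1.5 times, and without gold replicate 1, 7 were larger by as much.

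**Figure D2:**
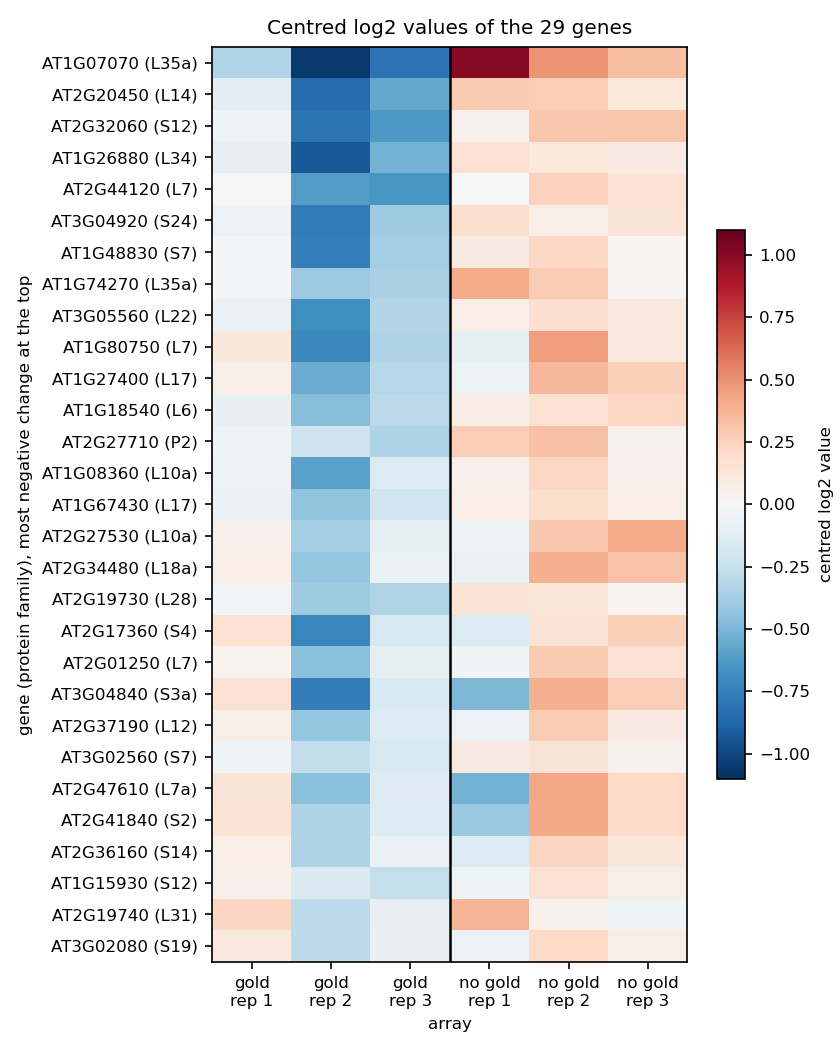
Centred log2 value (colour, blue below and red above the middle level of each gene) of the 29 genes in rows, ordered by change with the most negative at the top, on 3 gold arrays left of the line and 3 no gold arrays right of it. Gold replicates 2 and 3 are blue in every row, while gold replicate 1 and no gold replicate 1 hold values on both sides of 0.

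Among proteins of the large subunit, AT1G07070 of the L35a family changed most. Its values were -0.33, -1.06 and -0.81 in gold replicates 1, 2 and 3, against 1.00, 0.49 and 0.33 in no gold replicates 1, 2 and 3. The groups did not overlap, and no gold replicate 1 was the highest. The gene fell by 1.34 ± 0.25 with gold (SE, n = 3 and 3; limma adjusted p = 0.0079), a 2.53-fold lower level. Without no gold replicate 1 the change of AT1G07070 was -1.15. AT2G20450, which encodes an L14 protein, was the other gene that passed. It had -0.12, -0.85 and -0.56 in gold jars, against 0.29, 0.27 and 0.12 in no gold jars, with no overlap. It fell by 0.73 ± 0.21 (limma adjusted p = 0.0437). That call was lost without any 1 of the arrays other than gold replicate 1 (limma adjusted p = 0.077 to 0.153), while the change stayed between -0.79 and -0.56.

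Other genes of the large subunit had smaller changes that did not pass. AT1G26880 (L34) had -0.09, -0.93 and -0.52 in gold jars, against 0.16, 0.12 and 0.09 in no gold jars, a change of -0.64 ± 0.22 (limma adjusted p = 0.0862). AT3G05560 (L22) had -0.07, -0.67 and -0.32 in gold jars, against 0.07, 0.19 and 0.11 in no gold jars, a change of -0.48 ± 0.19. AT1G18540 (L6) had -0.08, -0.47 and -0.30 in gold jars, against 0.08, 0.17 and 0.22 in no gold jars, a change of -0.44 ± 0.16. In these 3 genes the groups were separate, with gold replicate 1 closest to the no gold jars. The P2 protein is an acidic protein of the flexible stalk that binds translation factors, and L12 sits at the base of that stalk. The P2 gene AT2G27710 had -0.05, -0.23 and -0.34 in gold jars, against 0.27, 0.32 and 0.05 in no gold jars, a change of -0.42 ± 0.16 with no overlap. The L12 gene AT2G37190 had 0.06, -0.43 and -0.15 in gold jars, against -0.06, 0.28 and 0.09 in no gold jars, and its groups overlapped (-0.28 ± 0.18).

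AT2G19730 (L28) and AT2G19740 (L31, a protein near the exit of the peptide tunnel) follow each other in locus code. AT2G19730 had -0.03, -0.39 and -0.33 in gold jars, against 0.15, 0.13 and 0.03 in no gold jars, a change of -0.35 ± 0.16. AT2G19740 had 0.24, -0.29 and -0.09 in gold jars, against 0.37, 0.05 and -0.05 in no gold jars, a change of -0.17 ± 0.20. Replicate 1 was the highest jar of each group for the L31 gene, and its groups overlapped. AT2G34480 (L18a) had 0.07, -0.43 and -0.07 in gold jars, against -0.07, 0.39 and 0.31 in no gold jars (-0.35 ± 0.20). AT2G47610 (L7a) had 0.15, -0.46 and -0.15 in gold jars, against -0.52, 0.43 and 0.21 in no gold jars (-0.19 ± 0.28; limma adjusted p = 0.727). No gold replicate 1 was the lowest of all 6 arrays for the L7a gene, and without no gold replicate 2 its change was 0.000212.

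None of the 10 measured genes of the small subunit passed. The most negative was AT2G32060 of the S12 family, with -0.05, -0.80 and -0.63 in gold jars, against 0.05, 0.30 and 0.31 in no gold jars, a change of -0.71 ± 0.22 (limma adjusted p = 0.0597). AT3G04920 (S24) had -0.07, -0.77 and -0.39 in gold jars, against 0.19, 0.07 and 0.14 in no gold jars, a change of -0.54 ± 0.20. The groups were separate in both genes. At the other end was AT3G02080 (S19, which in yeast and human is needed to mature the small subunit's RNA), with 0.10, -0.29 and -0.08 in gold jars, against -0.07, 0.22 and 0.07 in no gold jars (-0.16 ± 0.17). AT2G36160 (S14) had 0.07, -0.34 and -0.07 in gold jars, against -0.15, 0.23 and 0.13 in no gold jars (-0.18 ± 0.18). Both overlapped between the groups. AT3G04840 (S3a, on the platform of the subunit) had 0.17, -0.76 and -0.17 in gold jars, against -0.49, 0.39 and 0.27 in no gold jars (-0.31 ± 0.31). AT2G41840 (S2, beside the entry of the messenger RNA) had 0.15, -0.34 and -0.15 in gold jars, against -0.41, 0.42 and 0.21 in no gold jars (-0.19 ± 0.25). AT2G17360 (S4) had 0.17, -0.72 and -0.17 in gold jars, against -0.15, 0.15 and 0.27 in no gold jars (-0.33 ± 0.25). These 3 genes each had their lowest no gold value in replicate 1, and their groups overlapped (limma adjusted p from 0.438 to 0.703). Their changes hung on single jars. That of AT3G04840 was -0.06 without gold replicate 2 and -0.58 without no gold replicate 1. That of AT2G41840 was -0.01 without no gold replicate 2 and -0.43 without no gold replicate 1. That of AT2G17360 was -0.09 without gold replicate 2 and -0.53 without gold replicate 1.

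The sign of the mean difference was the same in both subunits. The median change was -0.28 over 10 small subunit genes and -0.42 over 19 large subunit genes, a difference that was not tested. The 3 gold values lay below the 3 no gold values in 4 of the 10 and in 11 of the 19, so in 15 of the 29 genes together, where 21.6% of all probe sets had that order. No gene had its gold values all above, which 15.6% of all probe sets had. The unadjusted 95% limma interval excluded a fall of 1 log2 unit in 21 of the 29 genes and included 0 in 18, so a miss of the threshold does not show that these genes were unchanged.

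**Figure D3:**
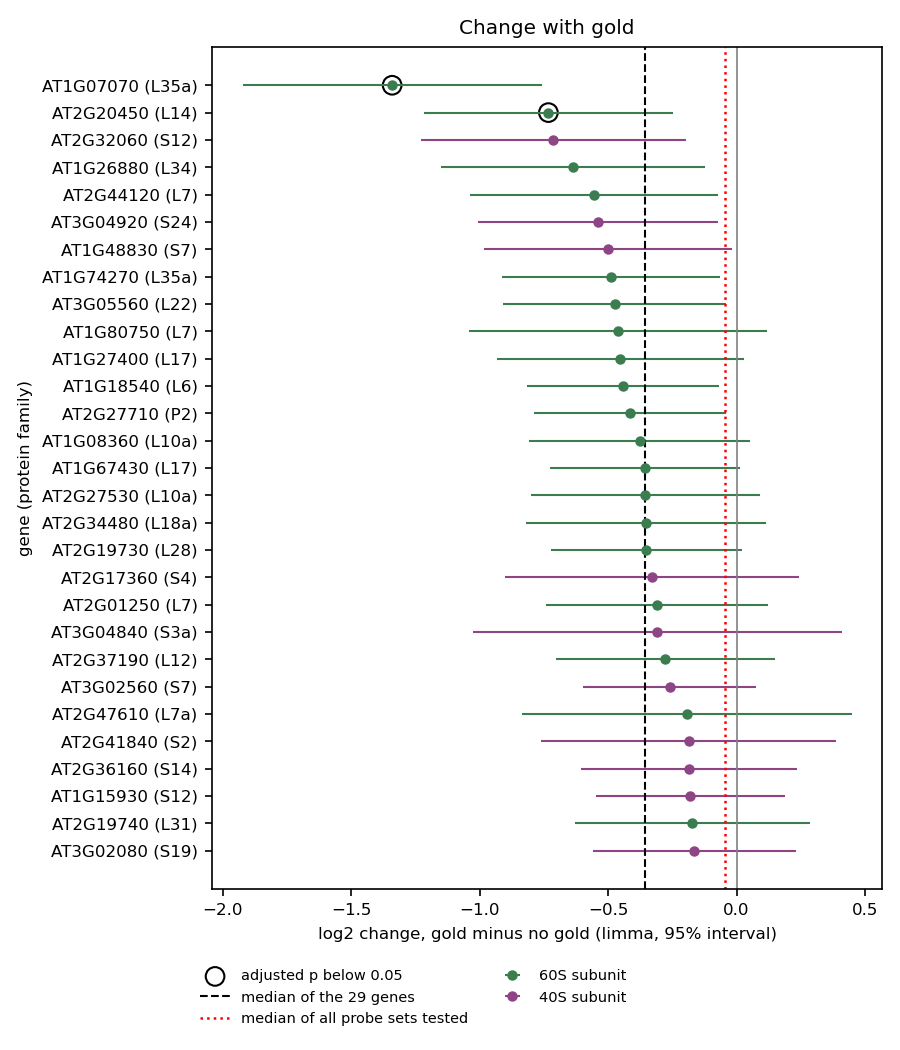
Log2 change of each gene, gold minus no gold (horizontal axis), with the unadjusted 95% limma interval, for large (green) and small (purple) subunit genes; circles mark the 2 genes with adjusted p below 0.05, the dashed line is the median of the 29 genes at -0.36 and the dotted red line that of all probe sets at -0.04. Every point lies below 0 and AT1G07070, at -1.34, lies apart from the rest.

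To ask which genes departed from the shared shift, the fit was repeated after subtracting the median of the 29 genes on each array. AT1G07070 was the only gene of the 29 to pass in this fit, at -0.96 ± 0.25 relative to the median gene (SE, n = 3 and 3; limma adjusted p = 0.0264), where 4.77% of all probe sets were called lower and 18.3% in either direction. The next smallest adjusted p was 0.25, for AT2G20450 at -0.35 ± 0.21. On the other side no departure was larger than 0.22, that of AT3G02080. The departure of AT1G07070 was -0.93 without gold replicate 3 and -0.91 without gold replicate 2, where it no longer passed (limma adjusted p = 0.119 and 0.0605). It was smallest in size, at -0.72, without no gold replicate 1, the array that stood apart in quality (limma adjusted p = 0.0437).

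Genes of the same family were set side by side in the 6 families with 2 or more measured genes. The L35a gene AT1G74270 had -0.01, -0.40 and -0.36 in gold jars, against 0.40, 0.28 and 0.01 in no gold jars. Its change of -0.49 ± 0.18 was 0.85 smaller in size than that of AT1G07070, and the difference between the 2 genes did not overlap between the groups (exact permutation p = 0.1, two-sided, adjusted 0.267 over 8 pairs of genes). In the S12 family AT1G15930 had 0.05, -0.16 and -0.26 in gold jars, against -0.05, 0.16 and 0.06 in no gold jars, and its change of -0.18 ± 0.16 differed by 0.53 in size from that of AT2G32060 (exact permutation p = 0.1, adjusted 0.267). With 3 jars a group, 0.1 is the smallest two-sided p this test can give, so no pair could pass.

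In the L7 family AT2G44120 had -0.00426, -0.61 and -0.64 in gold jars, against 0.00426, 0.25 and 0.16 in no gold jars (-0.56 ± 0.21). AT1G80750 had 0.12, -0.71 and -0.34 in gold jars, against -0.11, 0.46 and 0.11 in no gold jars (-0.46 ± 0.25). AT2G01250 had 0.04, -0.46 and -0.11 in gold jars, against -0.04, 0.28 and 0.16 in no gold jars (-0.31 ± 0.19). Of the 3, only AT2G44120 had separate groups. The change of AT2G44120 less that of AT2G01250 was -0.24, and the difference between these genes did not overlap between the groups (exact permutation p = 0.1, adjusted 0.267). For AT1G80750 the exact permutation p was 0.6 against AT2G44120 and 0.3 against AT2G01250. The S7 genes AT1G48830 (-0.50 ± 0.21) and AT3G02560 (-0.26 ± 0.15) both had separate groups. The exact permutation p for the difference between them was 0.3. AT1G48830 had -0.02, -0.76 and -0.39 in gold jars, against 0.09, 0.22 and 0.02 in no gold jars. AT3G02560 had -0.05, -0.27 and -0.18 in gold jars, against 0.10, 0.14 and 0.05 in no gold jars.

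The remaining pairs lay close together. L17 lines the tunnel through which the new peptide leaves. Its gene AT1G27400 had 0.06, -0.55 and -0.31 in gold jars, against -0.06, 0.36 and 0.26 in no gold jars (-0.45 ± 0.21). Its gene AT1G67430 had -0.07, -0.44 and -0.22 in gold jars, against 0.07, 0.19 and 0.07 in no gold jars (-0.36 ± 0.16). L10a forms the stalk beside the exit site of transfer RNA. AT1G08360 had -0.05, -0.59 and -0.15 in gold jars, against 0.05, 0.23 and 0.06 in no gold jars (-0.38 ± 0.19). PGY1 (AT2G27530), an L10a gene named for a leaf shape mutant, had 0.05, -0.38 and -0.10 in gold jars, against -0.05, 0.29 and 0.40 in no gold jars (-0.35 ± 0.19). The difference between the changes was 0.10 in the L17 pair and 0.02 in the L10a pair (exact permutation p = 0.5 and 0.9).

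**Figure D4:**
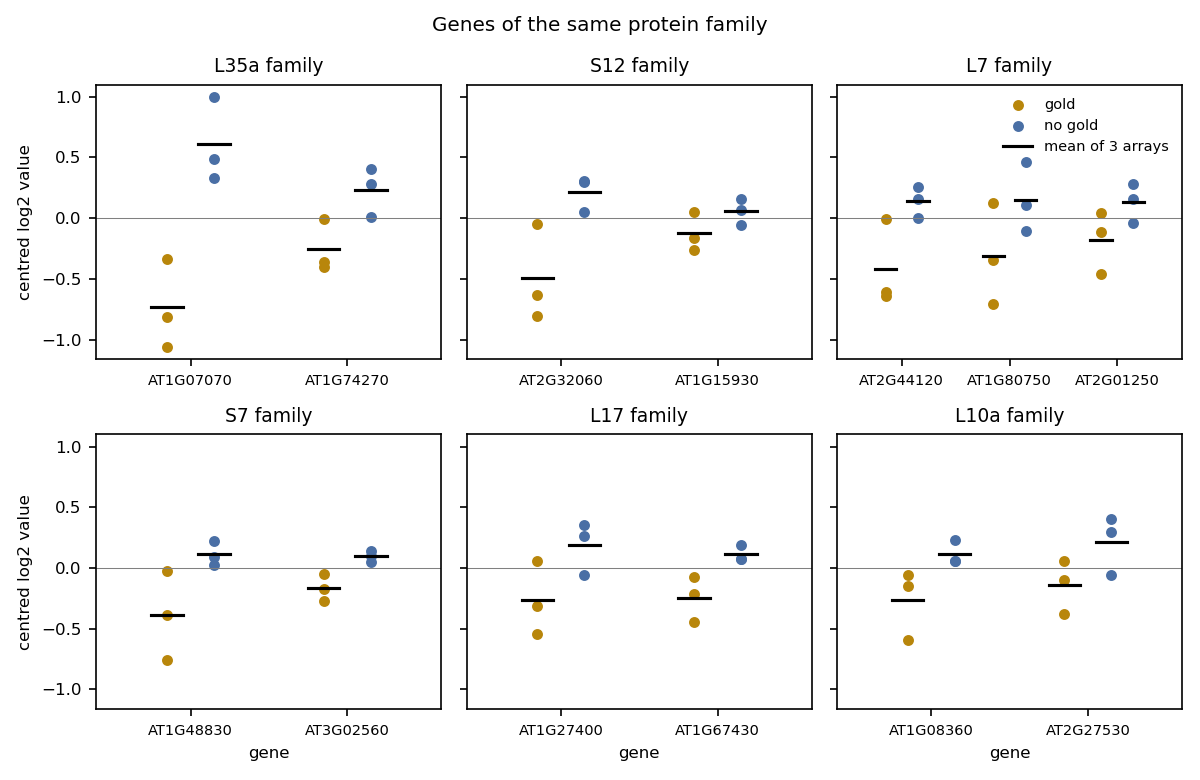
Centred log2 values (vertical axis) of the 13 genes of 6 protein families, with 3 gold arrays left of 3 no gold arrays for each gene and the mean of 3 arrays as a black bar. The gap between the groups is wide for AT1G07070 and narrower for AT1G74270 of the same L35a family, while both L10a genes have gaps of similar size.

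The 10 probe sets shared between near-identical genes listed 11 of the loci, and their signal cannot be assigned to 1 gene. All 10 had a negative change, from -0.53 to -0.17 with a median of -0.35, close to that of the genes with a probe set of their own. None passed the limma test (adjusted p from 0.0759 to 0.687). At an unadjusted p under 0.05, 2 of the 10 were lower, close to the 18.3% of all probe sets. The 3 gold values lay below the 3 no gold values in 5 of the 10, an order that 21.6% of all probe sets had.

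Other genes of the ribosome and of translation were read from lists beside these loci. A listed gene counts as measured if a probe set is assigned to that gene alone. The lists of other cytosolic and of plastid ribosomal proteins were written after the values of the 29 genes had been seen. The other cytosolic list also holds loci on the chromosomes of the 29 genes. Of 135 other cytosolic ribosomal protein loci, 77 were measured, and 75 of these had a negative change, with a median of -0.46. Passing were 8 lower and 0 higher genes, and 8 of 77 (10.4%) is close to the 10.9% of all probe sets called lower. At an unadjusted limma p under 0.05, 40 were lower and none was higher, against 18.3% and 13.6% of all probe sets. The genes that passed include AT4G30800 (S11) at -1.21 ± 0.26, AT4G25890 (P3, a stalk protein of plants) at -0.88 ± 0.21, AT3G44590 (P2) at -0.77 ± 0.22 and AT3G28900 (L34) at -0.77 ± 0.20. The count depended on single jars. It was 26 without gold replicate 1 (11.6% of all probe sets) and 13 under quantile normalization (11.4%). It was 3 without no gold replicate 1 (11.9%) or no gold replicate 3 (7.58%), and 1 without gold replicate 2 (7.14%). It was 0 without gold replicate 3 (5.53%) or no gold replicate 2 (6.88%). Of 39 genes for ribosomal proteins of the plastid, 9 were measured, all with a negative change (median -0.76), and 6 of the 9 were lower (10.9% of all probe sets), AT3G54210 (L17) by 0.85 ± 0.18 and AT4G01310 (L5) by 0.83 ± 0.19 among them. The plastid count was again 6 without no gold replicate 1 (11.9% of all probe sets). It was 3 without gold replicate 2 (7.14%), 2 without no gold replicate 3 (7.58%), 1 without no gold replicate 2 (6.88%) and 0 without gold replicate 3 (5.53%).

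**Figure D5:**
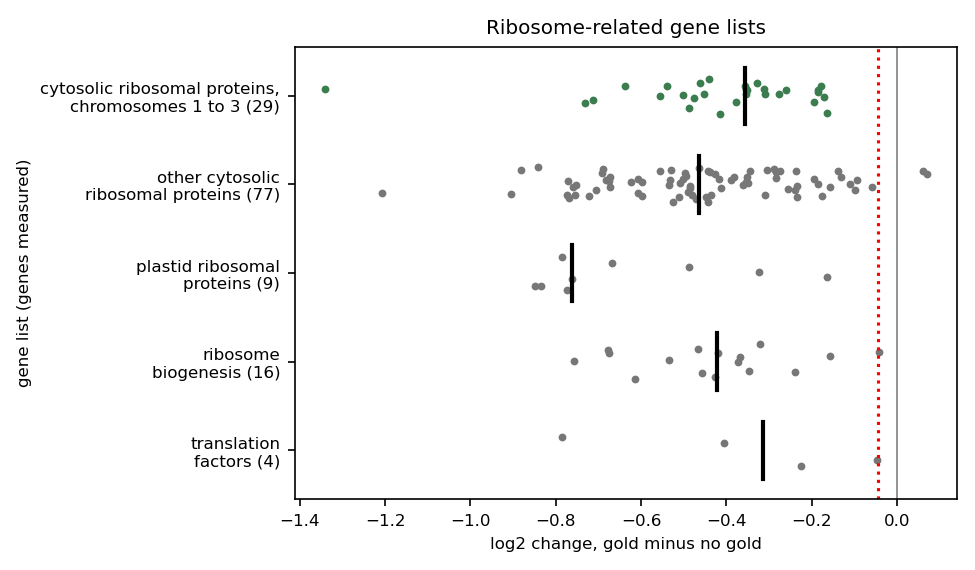
Log2 change, gold minus no gold (horizontal axis), of the measured genes of 5 ribosome-related lists, with 1 point a gene and the median of each list as a black line; the dotted red line is the median of all probe sets tested. The median is -0.36 for the 29 genes described here, -0.46 for other cytosolic and -0.76 for plastid ribosomal proteins.

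Of 40 genes for factors that assemble ribosomes, 16 were measured and all 16 had a negative change (median -0.42). AT3G03920, which encodes a GAR1 protein of the particles that modify ribosomal RNA, was the only one of the 16 to pass, where 10.9% of all probe sets were called lower (-0.68 ± 0.19; limma adjusted p = 0.045). Without gold replicate 1 the count was 6 (11.6% of all probe sets), and under quantile normalization it was 2 (11.4%). Without no gold replicate 1 it was again 1 (11.9%). Under array median centring it was 0 (10%). It was also 0 without gold replicate 2 (7.14%), gold replicate 3 (5.53%), no gold replicate 2 (6.88%) or no gold replicate 3 (7.58%). Of 34 translation factor genes 4 were measured, and AT5G12110, a subunit of the elongation factor that reloads eEF1A, was lower (-0.79 ± 0.21; limma adjusted p = 0.0375). It was the only one of the 4 to pass, where 10.9% of all probe sets were called lower. That count of 1 was 0 under array median centring and without gold replicate 1, gold replicate 3, no gold replicate 2 or no gold replicate 3. It stayed 1 under quantile normalization and without gold replicate 2 or no gold replicate 1. The shares of all probe sets in these settings were those given above. RAPTOR1 and RAPTOR2, which encode partners of the TOR kinase, were at 0.83 ± 0.32 and 0.14 ± 0.15 and did not pass. RAPTOR1 had 0.06, 0.44 and 0.63 in gold jars, against -1.17, -0.12 and -0.06 in no gold jars. Its lowest value was that of no gold replicate 1, the array that stood apart in quality, and without that array its change was 0.47.

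Markers of 3 kinds of tissue moved with the same contrast. Of 16 markers of dividing cells 3 were measured, AUR1, AUR2 and TOPII. All 3 were lower, by 0.91 to 1.47, where 10.9% of all probe sets were called lower. Their median on each array was -0.33, -0.53 and -1.13 in gold replicates 1, 2 and 3, against 0.64, 0.75 and 0.48 in no gold replicates 1, 2 and 3. The 3 root hair markers had medians of -0.56, -1.77 and -1.38 in gold jars, against 0.56, 1.45 and 1.29 in no gold jars. Of 6 shoot markers 2 were measured, RCA and PRK, with medians of -0.75, -0.28 and -0.73 in gold jars, against 0.50, 1.68 and 0.52 in no gold jars. RCA passed and PRK did not, against the same 10.9% of all probe sets. The part of these tissues in the values of the ribosomal protein genes was not tested.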

How the data were processed

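RNA from roots of 6 jars (3 gold, 3 no gold) was hybridised to ATH1 arrays. Per the labels' protocols, RNA was purified with a Qiagen kit and labelled with the MessageAmp II kit. The authors deposited log2 values centred per probe set, so that every row has a median of 0 within 1e-06. The log base was read as 2. The labels and headers name no background correction, summarisation or scaling, and centring left no level by which dim probe sets could be filtered. The number of arrays limits the precision.

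Of 22810 probe sets, 64 controls were left out. The remaining 22746 were fitted with limma 3.58.1 (lmFit, eBayes) in R 4.3.3, as the gold mean less the no gold mean. P-values are two-sided, adjusted by Benjamini and Hochberg's method over all of them, with a threshold of 0.05. The code was tested on simulated data. Probe sets were assigned to loci through the gene IDs of GEO's platform annotation and the TAIR10.1 gene table, which served for names alone; 13513 carry 1 gene. No listed gene had more than 1 probe set of its own. Departures were tested in the same fit after subtracting the median of the 29 genes on each array. Every measured gene could be named. By rule, all array values are given for the 10 most and 10 least negative changes, departures and families, and up to 4 passing genes from other lists. The planned search for other ribosomal proteins by description found none, since the gene table holds no descriptions, so lists of loci were written instead. Promoter motifs were planned and not analysed here.

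The genes and lists were chosen with earlier results of these data known. Groups are those of the sample titles. Alternatives were 2 other scalings (quantile normalization and array median centring), a block for replicate number, leaving out each array in turn, an ordinary equal-variance test and 3 other choices of probe sets. Tables were made in Python 3.11.15 with scipy 1.17.1, and figures with matplotlib 3.10.9.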

Additional observations from a re-analysis of the deposited data

How the results depend on the processing

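The median change of the 29 genes stayed negative under both other scalings and with each array left out. It lay between -0.50 (without gold replicate 1) and -0.26 (without gold replicate 2). The replicate block, the ordinary test and the 3 other choices of probe sets leave each gene's change as it is, so they could not move this median. The count of lower genes, 2 as reported, was 1 under array median centring (10% of all probe sets) and 1 with the replicate block. It was 0 with the ordinary test (9 lower at an unadjusted p under 0.05). Shares of all probe sets were not counted for the block or the ordinary test, so these counts cannot be set against them. With 1 array left out the count of lower genes was 1 to 7, the 7 without gold replicate 1 (11.6% of all probe sets). The added 5 were AT2G32060, AT1G26880, AT2G44120, AT3G04920 and AT1G48830 (limma adjusted p = 0.0117 to 0.0462). The count of higher genes was 0 throughout. The count of genes that departed from the median gene, 1 as reported, was 0 with the ordinary test and 0 to 1 with 1 array left out. For departures, shares of all probe sets were not counted in these settings. In the fit of gold against no gold, before any median was subtracted, AT1G07070 lost its call only with the ordinary test (adjusted p = 0.0774). AT2G20450 lost it with that test (0.136), array median centring (0.0518), the replicate block (0.0655) and 5 of the 6 arrays left out. The change of AT2G47610 ran from -0.47 (without no gold replicate 1) to 0.000212 (without no gold replicate 2), and it was called in neither fit. With 1 array left out, changes smaller in size by over 1.5 times numbered 15 (gold replicate 2), 5 and 3 (no gold replicates 2 and 3) and 1 (gold replicate 3 or no gold replicate 1), and larger ones 7 (gold replicate 1), 4 (no gold replicate 1) and 1 (no gold replicate 3). The cause was not tested for these. The 3 other choices of probe sets left every count as it was. They kept the same values of the 29 genes, so only the pooled spread and the adjustment could change. Another scaling moved the median of all probe sets from -0.04 to 0.00387 (quantile) or -0.00732 (array median centring). For the replicate block, deviations from the group mean had correlations of -0.11, -0.25 and 0.28 between gold and no gold arrays of the same number. Of the gold arrays, those numbered 1 and 2 were closer to another number, so the numbers were not taken as pairs.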

Other observations

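The array also carries control probe sets for ribosomal RNA itself. The 25S set had -0.40, -0.48 and 0.40 on the centred log2 scale in gold replicates 1, 2 and 3, against -1.72, 0.50 and 0.44 in no gold replicates 1, 2 and 3, so the groups overlapped and no gold replicate 1 was the lowest. The 5S set had 0.04, -0.08 and 0.09 in gold jars, against 0.05, -0.13 and -0.04 in no gold jars, also overlapping. No test was made on these control sets.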
